A study of Mus musculus with 9 samples.

Results

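The genes described here are 8 that encode enzymes of the pentose phosphate pathway and cytosolic enzymes beside it that reduce NADP to NADPH, namely Pgls, Pgd, Rpia, Rpe, Tkt, Taldo1, Me1 and Idh1. They are named by gene symbol from 16509 genes in the expression table, by a rule that uses no measured value. These genes were, however, chosen with earlier results of these data known. All 8 were among the 11949 genes with enough counts to be tested. RNA sequencing of the mouse colon carcinoma line MC38 covered 3 groups of 3 libraries each. The Ctrl libraries carry the treatment label DMSO, while the study's methods name PBS. The Cu-Cys libraries came from cells given copper chloride together with cystine. The Cadict libraries came from cells given Cadict, a nanodrug in which a copper and cystine coordination complex carries glucose oxidase (GOx) and is coated with a lipid-linked peptide, GE11, that binds the epidermal growth factor receptor. All libraries are from 1 cell line without any gene alteration, and neither the dose nor the exposure time of these libraries is stated. The labels do not say whether the 3 libraries of a group were separate cultures, so the p-values below measure only the spread between these libraries.

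The pentose phosphate pathway branches from glycolysis at glucose 6-phosphate. Its oxidative branch makes NADPH and ribulose 5-phosphate, and its non-oxidative branch interconverts sugar phosphates, supplying ribose 5-phosphate for nucleotides or returning carbon to glycolysis. Cytosolic malic enzyme and cytosolic isocitrate dehydrogenase are further sources of NADPH, which cells use to reduce glutathione, thioredoxin and cystine and to build fatty acids and sterols. The question addressed by the libraries here is how the transcripts of this NADPH supply differ between controls, cells given copper and cystine, and cells given a nanodrug that joins both to an enzyme that consumes glucose and to a targeting peptide.

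Total expected counts ranged from 17905770 to 18293060 per library, but their composition differed between groups. The TMM factors, which scale the libraries on the assumption that most genes do not differ, were 1.26 to 1.27 in Ctrl, 1.21 in each Cu-Cys library and 0.640 to 0.665 in Cadict. Compared with TMM, scaling by library totals alone moved the median log2 fold change of all genes by -0.95 in Cadict against Ctrl, by -0.88 in Cadict against Cu-Cys and by -0.07 in Cu-Cys against Ctrl. Changes in Cadict are therefore given on the TMM scale, with the value on library totals in the same sentence where the sign or the call differed, and beside ratios between enzymes of 1 library, which no scaling factor enters. In bulk RNA, fewer cells of a kind and less RNA per cell cannot be told apart. Of 9 colon epithelial markers, 7 were in the table, and Epcam had no count in any Ctrl or Cu-Cys library and at most 4 in Cadict, whereas 5 mesenchymal genes summed to 2730 to 2783 in Ctrl, 2464 to 2569 in Cu-Cys and 2074 to 2450 in Cadict, in CPM, the unit of read counts per TMM-adjusted library size. These epithelial markers were thus low beside the mesenchymal genes. The 2 of them tested, Cdh1 and Krt19, had means of 6.92 and 4.23 CPM over the 9 libraries. On the TMM scale their log2 fold changes in Cadict against Ctrl were 1.39 and 3.34. Vim, at a mean of 2073 CPM, made up most of the mesenchymal sum, with a TMM-scaled log2 fold change of 0.0024 in that comparison. Scaling by library totals, which moved the median of all genes by -0.95, would make this value negative. The epithelial sum was 5.32 to 6.83 CPM in Ctrl, 3.97 to 4.38 in Cu-Cys and 24.1 to 26.2 in Cadict, and 3 of the 5 mesenchymal genes were lower in Cadict than in Ctrl on the TMM scale, Col1a2 (-2.19) and Col1a1 (-1.50) among them. The part of these markers in the results was not tested.

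Promoter windows are shown for 3 enzymes, each 250 bases ending just before a RefSeq transcription start, because they stand for the patterns described below. They are a pair with close profiles and rises in both treatments (Pgd and Me1) and a fall (Idh1). Sequences and positions are from RefSeq on GRCm38.p6, read 5′ to 3′ on the gene's own strand, which is the minus strand in all 3. The windows lie at chr4:149166706-149166955 for Pgd, chr9:86695915-86696164 for Me1 and chr1:65186480-65186729 for Idh1. Capitals mark the GC box GGGCGG on either strand, the site bound by SP1 and related factors.
Pgd: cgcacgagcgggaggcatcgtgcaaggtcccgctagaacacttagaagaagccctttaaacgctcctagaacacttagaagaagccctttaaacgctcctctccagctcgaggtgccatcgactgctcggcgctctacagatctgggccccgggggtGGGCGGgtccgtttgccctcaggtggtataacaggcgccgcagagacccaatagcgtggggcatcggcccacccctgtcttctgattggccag
Me1: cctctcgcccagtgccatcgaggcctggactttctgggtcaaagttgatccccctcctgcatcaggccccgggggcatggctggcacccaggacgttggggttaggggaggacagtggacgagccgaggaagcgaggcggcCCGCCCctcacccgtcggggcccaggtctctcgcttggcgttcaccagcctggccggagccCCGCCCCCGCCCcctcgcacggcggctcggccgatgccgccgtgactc
Idh1: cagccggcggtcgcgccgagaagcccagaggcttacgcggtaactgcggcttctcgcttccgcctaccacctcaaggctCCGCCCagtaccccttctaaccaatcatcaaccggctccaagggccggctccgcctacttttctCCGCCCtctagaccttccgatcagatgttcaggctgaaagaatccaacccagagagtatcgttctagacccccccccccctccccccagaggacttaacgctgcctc
The GC box, held by 32.7% of 32851 mouse promoter windows of this length, occurred once in the Pgd window shown, 2 times in that of Idh1 and 3 times in that of Me1. Each of these genes has another window, not shown, with 0 GC boxes for Pgd and Me1 and 1 for Idh1. The core of the antioxidant response element (TGACNNNGC, either strand), the site bound by NRF2 with a small MAF protein, was found in none of the 11 windows of the 8 genes and in 10.2% of all windows. An AP-1 site (TGANTCA) was found in none of the 11 and in 6.75% of all windows. These letters describe the windows only, and a window without them says nothing about sites elsewhere in the gene.

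The 8 enzymes differed in level by an order of magnitude before treatment. Levels of different genes are compared here in TPM, which divides counts by transcript length and by the library's sum. In Ctrl, Taldo1 was highest at 224.0 ± 3.71 TPM (SD, n = 3), followed by Pgd at 194.2 ± 10.04 and Tkt at 188.1 ± 9.38, whose libraries overlapped each other. Pgls stood at 144.0 ± 7.78 TPM and Idh1 at 95.02 ± 1.88. Rpe at 47.0 ± 2.99, Me1 at 38.7 ± 1.27 and Rpia at 22.4 ± 0.841 TPM formed the low end, without overlap between them. In Cu-Cys the order of levels had Pgd first at 323.0 ± 12.9 TPM, ahead of Taldo1 at 252.4 ± 14.5, and no neighbours in the order overlapped. In Cadict, Pgd at 303.8 ± 22.4 and Taldo1 at 300.3 ± 11.7 TPM overlapped at the top, and Idh1, at 11.0 ± 2.18 TPM, had moved from the fifth place in Ctrl to the last. The summed TPM of the 8 enzymes was 953.6 ± 23.7 in Ctrl, 1091 ± 47.0 in Cu-Cys and 970.1 ± 40.8 in Cadict.

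Compared with Ctrl, 6 of the 8 enzymes were higher in Cadict on the TMM scale at an adjusted p of at most 0.05, Idh1 was lower and Rpe did not pass the test. Among all genes tested, 40.6% were called higher and 47.1% lower in this comparison. When a change of at least 2-fold and an adjusted p of at most 0.001 were required, Pgd, Taldo1 and Me1 were higher and Idh1 was lower, against 20.7% and 27.1% of all genes. Pgls and Tkt lay just under 2-fold, and without Cadict replicate 3 they passed it, giving 5 enzymes. With library totals instead of TMM, 3 enzymes were higher (Pgd, Taldo1 and Me1) and 2 lower (Rpe and Idh1), where 18.1% of all genes were higher and 73.1% lower. On TPM the same 3 were higher and the other 5 lower, beside 11.9% and 79.9% of all genes. The libraries of the groups did not overlap for 7 of the 8 enzymes, beside 87.5% of all genes. The median log2 fold change of the 8 enzymes was 0.98 and that of all genes -0.13.

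**Figure D1:**
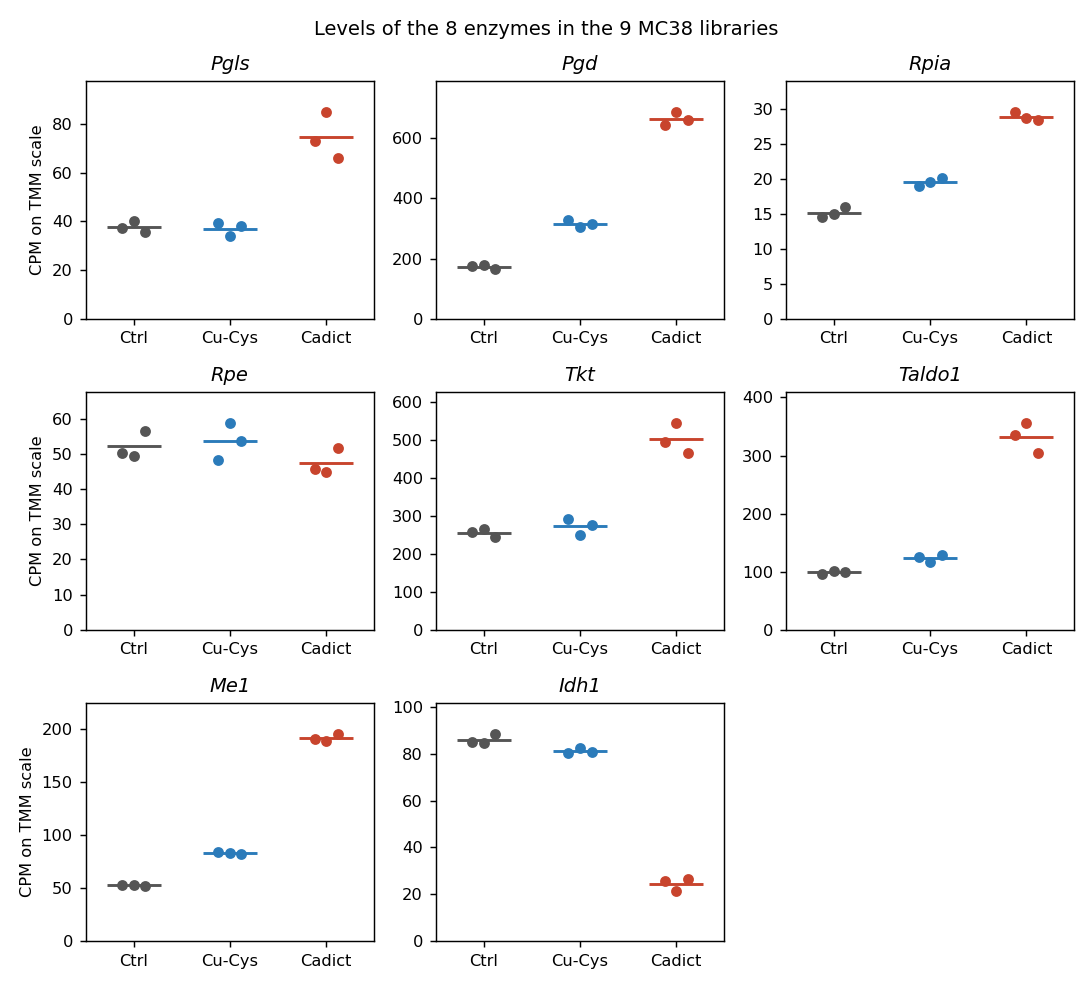
Each panel plots 1 enzyme, with CPM on the TMM scale on the vertical axis, a point for each of the 3 libraries of a group and a line at the group mean. On this scale Pgd, Me1, Taldo1 and Rpia step upwards from Ctrl to Cu-Cys to Cadict, and Pgls and Tkt stand apart in Cadict alone. Rpe overlaps in all 3 groups and Idh1 drops to between 21.4 and 26.4 CPM in Cadict.

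In the oxidative branch, Pgls and Pgd moved by different amounts. Pgls encodes 6-phosphogluconolactonase, which opens the lactone made in the first step of the pathway. Its TMM-scaled levels were 37.1, 39.9 and 35.5 CPM in Ctrl, 39.3, 33.8 and 37.9 in Cu-Cys and 72.9, 84.9 and 65.9 in Cadict. The Ctrl and Cu-Cys libraries overlapped (log2 fold change -0.02, SE 0.09, adjusted p = 0.88), and the Cadict libraries were all higher than either group. Against Ctrl the TMM-scaled log2 fold change was 0.99 (SE 0.09, adjusted p = 2.2e-08), which did not pass the test on library totals (0.04) and was a fall on TPM (-0.34).

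Pgd encodes 6-phosphogluconate dehydrogenase, the second NADPH-making step, and it was the enzyme with the largest rise in either treatment. Its levels were 174.4, 176.9 and 163.6 CPM in Ctrl, 327.7, 304.6 and 314.5 in Cu-Cys and 645.0, 687.6 and 659.7 in Cadict. None of the 3 groups overlapped, and the Cu-Cys libraries stood between the others. In Cu-Cys the log2 fold change was 0.88 (SE 0.05, adjusted p = 1.7e-08), larger than that of 98.9% of all genes tested. Cadict against Ctrl gave 1.95 (SE 0.05, adjusted p = 1.8e-14), larger than that of 92.7% of genes, and this rise was also called on library totals (1.00) and on TPM (0.64). Against Cu-Cys, Cadict was higher by 1.07 on the TMM scale (SE 0.05, adjusted p = 1.6e-11), whereas the TPM values differed by -0.09 (adjusted p = 0.21).

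Within each library, the ratio of Pgd to Pgls was compared without any scaling factor. The TPM ratio was 1.35 ± 0.0414 (SD, n = 3) in Ctrl, 2.52 ± 0.114 in Cu-Cys and 2.67 ± 0.297 in Cadict. All Ctrl libraries were lower than those of both treatments, and in Cadict the ratio exceeded that in Ctrl by 0.98 on the log2 scale. With 3 libraries against 3, an exact two-sided permutation test reaches no less than p = 0.1, which it gave here (adjusted p = 0.11 over 12 ratio comparisons). Cu-Cys and Cadict overlapped (exact permutation p = 0.7).

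In the non-oxidative branch, the carbon-transferring enzymes Taldo1 and Tkt and the isomerase Rpia were higher in Cadict than in Ctrl on the TMM scale, Taldo1 alone of them also on library totals, and the epimerase Rpe was not. Taldo1 encodes transaldolase, which moves 3-carbon units between sugar phosphates. Its levels were 96.1, 101.9 and 99.6 CPM in Ctrl, 125.1, 117.0 and 129.1 in Cu-Cys and 335.5, 355.8 and 304.5 in Cadict. The groups did not overlap, and most of the difference lay between Cu-Cys and Cadict. Cu-Cys exceeded Ctrl by a log2 fold change of 0.32 (SE 0.06, adjusted p = 0.00068), and Cadict exceeded Ctrl by 1.74 (SE 0.06, adjusted p = 4.0e-13) and Cu-Cys by 1.42 (SE 0.06). On library totals Taldo1 remained higher in Cadict than in Ctrl (0.79) and in Cu-Cys (0.54).

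Tkt encodes transketolase, a thiamine diphosphate enzyme that moves 2-carbon units. It was measured at 257.0, 265.3 and 244.3 CPM in Ctrl, 291.4, 251.0 and 276.0 in Cu-Cys and 494.7, 545.3 and 467.6 in Cadict. Ctrl and Cu-Cys overlapped (log2 fold change 0.09, SE 0.07, adjusted p = 0.26), and all Cadict libraries were higher on the TMM scale (0.98, SE 0.07, adjusted p = 1.0e-09), which did not pass the test on library totals (0.02) and turned on TPM (-0.33). The TPM ratio of Taldo1 to Tkt was 1.14, 1.18 and 1.26 in Ctrl, 1.32, 1.43 and 1.42 in Cu-Cys and 2.07, 1.99 and 1.98 in Cadict. Its groups did not overlap (exact permutation p = 0.1 for each pair of groups, the lowest possible), and every Cadict library had the higher ratio. No scaling factor enters this ratio, so it does not test the scaling.

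Rpia and Rpe both act on ribulose 5-phosphate, Rpia to give ribose 5-phosphate and Rpe to give xylulose 5-phosphate. Rpia was at 14.5, 15.0 and 16.0 CPM in Ctrl, 18.9, 19.6 and 20.2 in Cu-Cys and 29.6, 28.7 and 28.5 in Cadict. Its groups did not overlap, with a log2 fold change of 0.37 in Cu-Cys (SE 0.07, adjusted p = 0.00052) and of 0.93 in Cadict against Ctrl on the TMM scale (SE 0.07, adjusted p = 3.4e-09), which became -0.02 on library totals. Rpe was at 50.3, 49.5 and 56.5 CPM in Ctrl, 48.2, 58.7 and 53.7 in Cu-Cys and 45.8, 45.0 and 51.7 in Cadict.

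The Rpe libraries of all groups overlapped, and its log2 fold changes were 0.04 in Cu-Cys (SE 0.08, adjusted p = 0.71) and -0.13 in Cadict against Ctrl (SE 0.08, adjusted p = 0.14). In Cadict against Cu-Cys the value was -0.17 (95% interval -0.35 to 0.0043, adjusted p = 0.064). These calls changed with single libraries and with the filter on low counts. Rpe was lower than Ctrl with a filter of at least 10 counts (-0.19, adjusted p = 0.038) and with none (-0.21, adjusted p = 0.018), and lower than Cu-Cys with both (-0.21, adjusted p = 0.028, and -0.26, adjusted p = 0.0045). Without Cadict replicate 3, Rpe was lower than Ctrl (-0.20, adjusted p = 0.040) and lower than Cu-Cys (-0.24, adjusted p = 0.017), and without Cu-Cys replicate 1 it was again lower than Cu-Cys (-0.24, adjusted p = 0.016). On library totals it fell with the bulk of all genes (-1.09 against Ctrl). The TPM ratio of Rpia to Rpe was 0.478 ± 0.0169 (SD, n = 3) in Ctrl, 0.603 ± 0.0532 in Cu-Cys and 0.988 ± 0.0842 in Cadict, without overlap between groups.

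The other cytosolic NADPH enzymes, Me1 and Idh1, went in opposite directions. Me1, NADP-dependent malic enzyme, which turns malate into pyruvate, was at 52.7, 52.6 and 52.0 CPM in Ctrl, 84.1, 82.8 and 82.3 in Cu-Cys and 190.4, 188.5 and 195.1 in Cadict. Each group was tight and none overlapped. In Cu-Cys the log2 fold change was 0.66 (SE 0.05, adjusted p = 9.7e-08), larger than that of 97.8% of all genes. In Cadict it was 1.87 against Ctrl (SE 0.05, adjusted p = 7.7e-15) and 1.20 against Cu-Cys (SE 0.05, adjusted p = 1.1e-12). On library totals Me1 was also higher in Cadict than in Ctrl (0.91) and than in Cu-Cys (0.32), while on TPM it did not pass the test against Cu-Cys (0.04, adjusted p = 0.64).

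Idh1, cytosolic NADP-dependent isocitrate dehydrogenase, which turns isocitrate into 2-oxoglutarate, was the only enzyme of the 8 that fell on the TMM scale. It was at 85.3, 84.8 and 88.4 CPM in Ctrl, 80.2, 82.4 and 80.8 in Cu-Cys and 25.5, 21.4 and 26.4 in Cadict. The Cu-Cys libraries lay just below those of Ctrl without passing the test (log2 fold change -0.09, SE 0.06, adjusted p = 0.25). Cadict was 3.53-fold lower than Ctrl (log2 fold change -1.82, SE 0.07, adjusted p = 9.2e-13) and 3.32-fold lower than Cu-Cys. The fall was larger on library totals, where it was -2.77 against Ctrl. Its counts, between 245 and 314 in Cadict, were well above the 3 counts that a count of 0 allows. The TPM ratio of Me1 to Idh1 was 0.418, 0.416 and 0.390 in Ctrl, 0.694, 0.666 and 0.678 in Cu-Cys and 4.94, 5.90 and 4.90 in Cadict. All groups were apart (exact permutation p = 0.1 for each pair, the lowest possible), and Me1 had passed Idh1 in level only in the Cadict libraries.

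**Figure D2:**
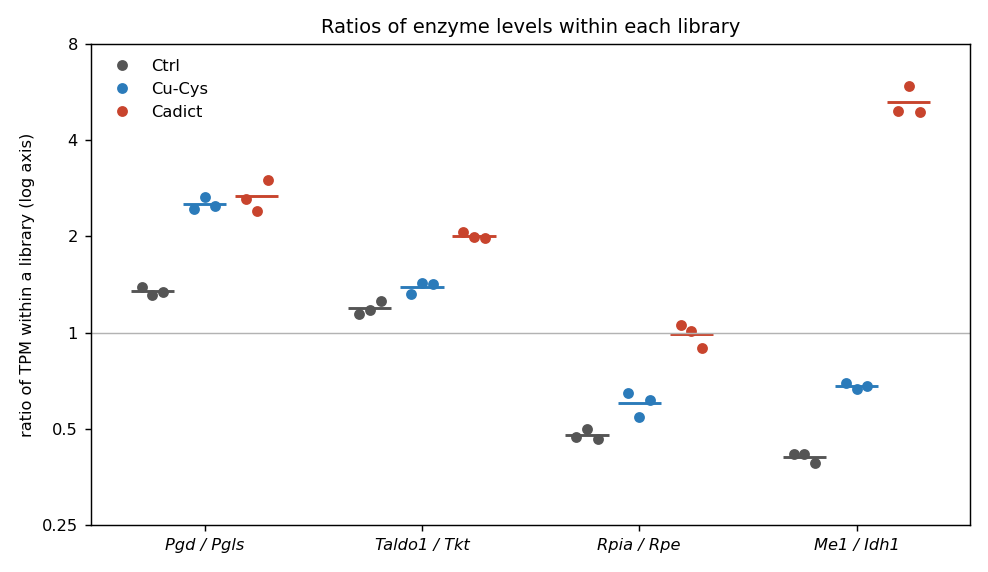
The vertical axis, which is logarithmic, gives the ratio of 2 enzymes' TPM within a library, with a point per library and a line at the mean of the 3 libraries of Ctrl (grey), Cu-Cys (blue) and Cadict (red). Me1 over Idh1 moved farthest, from about 0.4 in Ctrl to 4.90 or more in Cadict, and Pgd over Pgls is the ratio in which Cu-Cys and Cadict overlapped.

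Taken against the bulk of all genes, 7 of the 8 enzymes kept their side of the median in every setting tried for Cadict against Ctrl, Rpe being the exception. Subtracting this median removes a change of scaling factor, which shifts all genes nearly alike. Settings that differ only in scaling could therefore barely move these values and are no test of them. With the median of all genes subtracted, Pgd was 2.08 above it in Cadict against Ctrl (1.76 to 2.11 over 20 settings, including the reported fit), Me1 1.99 (1.64 to 2.02), Taldo1 1.87 (1.54 to 1.94), Pgls 1.12 (0.79 to 1.21), Tkt 1.10 (0.79 to 1.17) and Rpia 1.06 (0.75 to 1.09). Rpe moved with that median (-0.01, range -0.25 to 0.05) and Idh1 was 1.69 below it, with a value of -1.69 (-1.90 to -1.60). In Cu-Cys against Ctrl the same subtraction left Pgd at 0.87 (0.84 to 0.90) and Me1 at 0.66 (0.61 to 0.67), ahead of Rpia at 0.36 and Taldo1 at 0.31.

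**Figure D3:**
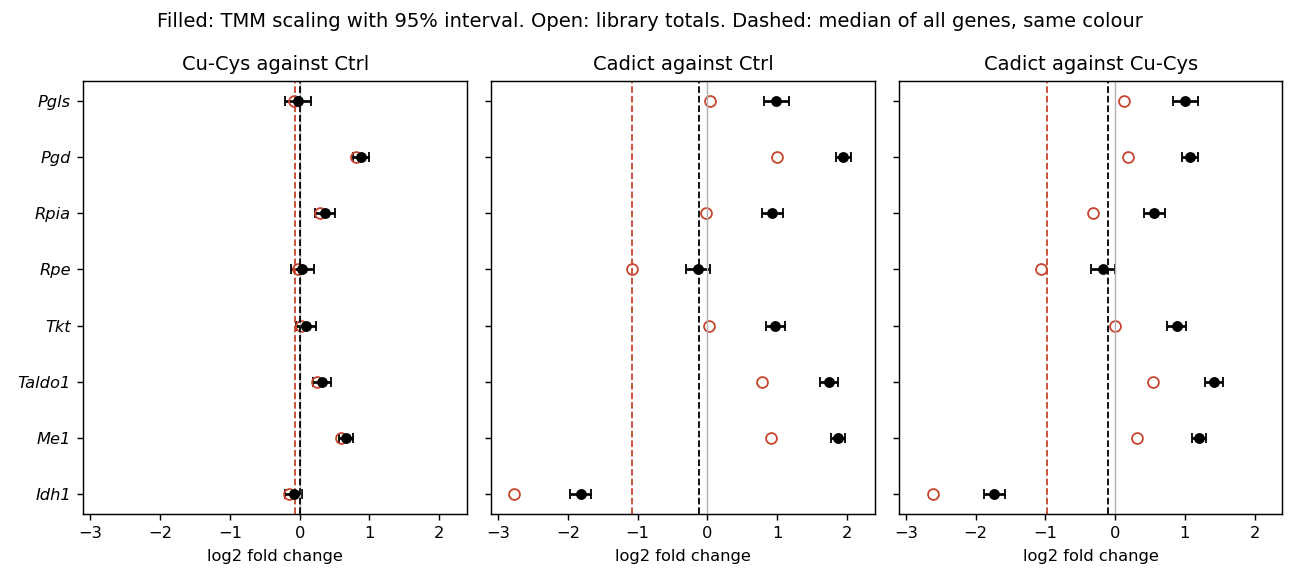
Each panel gives the log2 fold change of the 8 enzymes in 1 comparison, filled black on the TMM scale with its 95% interval and open red on library totals, with the median of all genes dashed in the same colour. In both Cadict panels the open points are shifted to the left together with their dashed median, because a change of scaling factor shifts all genes nearly alike. The distance of each enzyme from its median is thus nearly kept by construction.

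In Cu-Cys against Ctrl, 4 of the 8 enzymes were higher (Pgd, Rpia, Taldo1 and Me1) and none was lower, where 22.6% of all genes were higher and 22.4% lower. None reached 2-fold with an adjusted p of at most 0.001, which 0.167% of all genes did upwards and 1.47% downwards. The libraries did not overlap for 5 enzymes, Idh1 being the fifth, beside 61.2% of all genes. On library totals the counts were again 4 higher and 0 lower, beside 15.4% and 28.9% of all genes, and on TPM 3 and 0, beside 7.51% and 29.4%. In Cadict against Cu-Cys, 6 enzymes were higher and Idh1 lower on the TMM scale, beside 40.3% and 45.6% of all genes. At 2-fold, 4 were higher (Pgls, Pgd, Taldo1 and Me1) and Idh1 lower, beside 18.6% and 23.6%, and the libraries did not overlap for 7 enzymes, beside 85% of all genes. On library totals 3 were higher (Pgd, Taldo1 and Me1) and 3 lower (Rpia, Rpe and Idh1), beside 17.3% and 72% of all genes, and on TPM 1 was higher (Taldo1) and 5 lower, beside 11.4% and 77.6%. The 3 comparisons share their groups, so their values are given side by side and were not tested against each other.

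Counting of reads could blur some of these genes. Of all 50-base stretches in the annotated transcripts of Me1, 28.3% also occur in another gene, mostly Gm7049, a symbol not among the genes measured. For Pgls the share was 18.9%, in Fam129c, also a symbol not among the genes measured. Rpe shared 15.4% with Kansl1l, for which the log2 fold change was 1.44. The expected counts were fractional for Rpe in every library, whereas those of Me1 and Pgls were whole numbers. Tkt and Idh1 shared none, and Pgd shared 0.64%.

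The profiles most like those of the enzymes, by Euclidean distance of centred log2 CPM over the 9 libraries, can be named without any statement on function. Pgd lay nearest to Srxn1, which encodes sulfiredoxin (distance 0.16), and then to Tom1 (0.28). Me1 lay nearest to Slc16a1, the lactate and pyruvate carrier MCT1 (0.18), and also to Tom1 (0.18). Idh1 lay nearest to N4bp1 (0.10) and Cnot6 (0.12), and Taldo1 to Rad9a and Cfl1 (both 0.13). Tkt and Pgls shared Ctsz as a nearest gene, Tkt with Abhd10 and Pgls with Anapc7 beside it. Rpia lay nearest to Dnajb11 and St7, and Rpe to Tmx3 and Nab1. Among the 8 enzymes themselves, Pgls and Tkt were the closest pair (0.20), followed by Pgd and Me1 (0.29), and Idh1 lay at 2.32 or more from each of the others. With 3 groups of 3 libraries such distances rest mainly on the 2 group differences.

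Other genes listed around the supply of NADP or NADPH were mixed in Cadict against Ctrl. Of 14 tested genes, 8 were higher and 4 lower on the TMM scale (median 0.54, beside -0.13 for all genes), where 40.6% of all genes were higher and 47.1% lower. On library totals 4 were higher and 10 lower, beside 18.1% and 73.1% of all genes. The mitochondrial one-carbon enzymes Aldh1l2, Mthfd2 and Mthfd1l were among the higher genes. Mthfd1l does not itself make NADPH, nor does Fdxr, counted among the lower genes on the TMM scale and named after its values were seen. Aldh1l2, which releases one-carbon units as CO2 while making NADPH, went from 49.3 ± 1.96 to 231.2 ± 33.2 CPM (SD, n = 3; log2 fold change 2.23, adjusted p = 1.2e-12). Mthfd2 rose by 1.73 and Mthfd1l by 1.26 on the TMM scale. All 3 signs held on library totals and TPM, but Mthfd1l was at 0.31 on library totals and only at 0.046 on TPM. H6pd, which makes NADPH inside the endoplasmic reticulum, had the largest fall of any gene in the list. It went from 68.5 ± 1.56 CPM in Ctrl and 59.7 ± 3.07 in Cu-Cys to 3.16 ± 0.231 in Cadict (log2 fold change -4.44, SE 0.09, adjusted p = 1.0e-15). Nadk2, the mitochondrial NAD kinase, fell by 1.31 on the log2 scale, and Nnt, the mitochondrial transhydrogenase, fell by 1.00.

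At the entry and exit of the pathway, 6 of 14 tested genes were higher and 5 lower in Cadict against Ctrl on the TMM scale (median 0.17), beside 40.6% and 47.1% of all genes, and 1 was higher and 10 lower on library totals, beside 18.1% and 73.1%. Tigar, which lowers fructose 2,6-bisphosphate, had a log2 fold change of 1.16, Pgm2, of the phosphoglucomutase family, of 0.95 and Hk2, hexokinase, of 0.69 on the TMM scale, but all were negative on TPM (-0.25, -0.35 and -0.55). Genes of the step from ribose 5-phosphate to phosphoribosyl pyrophosphate went in both directions. Prps2, a synthetase of this step, went from 67.7 ± 0.333 CPM in Ctrl to 15.9 ± 1.08 in Cadict (log2 fold change -2.09, adjusted p = 1.2e-13), Prps1l3 had a log2 fold change of -2.44 and the associated protein Prpsap1 one of -1.41. Prps1l3 is a near copy of Prps1, so that reads of these genes may be split between them. Prps1, another synthetase, was higher at 0.68 on the TMM scale (adjusted p = 4.0e-09) but at -0.28 on library totals, and Prpsap2, an associated protein, was at -0.25, both named after their values were seen.

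Among enzymes that spend NADPH, 14 of 19 tested genes were higher and 4 lower in Cadict against Ctrl on the TMM scale (median 0.96), beside 40.6% and 47.1% of all genes, and 8 were higher and 8 lower on library totals, beside 18.1% and 73.1%. Txnrd1, cytosolic thioredoxin reductase, rose from 209.7 ± 2.54 CPM in Ctrl to 358.2 ± 4.37 in Cu-Cys and 3113 ± 234.4 in Cadict (log2 fold change 3.89, SE 0.06, adjusted p = 8.6e-17). Blvrb, biliverdin reductase B, rose by 2.88 and Aldh18a1, which starts proline synthesis from glutamate, by 1.94. Sqle, a sterol synthesis enzyme, fell by 1.07, Fasn, fatty acid synthase, by 0.26 and Txnrd3, a thioredoxin reductase, fell by 0.23 on the log2 scale. The last 2 values were small beside the choice of scaling. With DESeq2 size factors in place of TMM, Fasn was at -0.14 and Txnrd3 at -0.11, and 3 genes of the list were called lower. In Cu-Cys, 14 of the 19 were higher and 1, Pycr1, was lower (median 0.26), beside 22.6% and 22.4% of all genes, and 10 and 2 on library totals, beside 15.4% and 28.9%. Among the higher genes were Txnrd1 at 0.77 and, in contrast to Cadict, Sqle and Fasn at 0.32 and 0.33. Gsr, glutathione reductase, named after its values were seen, was higher in Cu-Cys (0.55, adjusted p = 1.4e-06), and in Cadict it was at 0.08 against Ctrl on the TMM scale (adjusted p = 0.16) and at -0.87 on library totals.

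Around Me1 and Idh1, 6 of 14 genes of malate, citrate and isocitrate metabolism were higher and 4 lower in Cadict against Ctrl on the TMM scale (median 0.09), beside 40.6% and 47.1% of all genes, and 2 were higher and 11 lower on library totals, beside 18.1% and 73.1%. Got1, cytosolic aspartate aminotransferase, rose from 67.0 ± 4.54 to 625.4 ± 9.96 CPM (log2 fold change 3.22, adjusted p = 3.5e-16). Cs and Mdh2, mitochondrial citrate synthase and malate dehydrogenase, were at 1.17 and 1.04 on the TMM scale and at -0.13 and -0.28 on TPM. Slc25a11, the carrier of 2-oxoglutarate and malate, and Slc25a1, the citrate carrier, fell by 1.08 and 0.76, and Acly, ATP citrate lyase, fell by 0.33 on the log2 scale.

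Of 12 regulators described for these enzymes, 9 were higher and 3 lower in Cadict against Ctrl on the TMM scale (median 0.85), beside 40.6% and 47.1% of all genes, and 5 and 5 on library totals, beside 18.1% and 73.1%. The largest rises on the list were in 2 of its 3 small MAF genes, whose proteins pair with NRF2, with Maff going from 23.8 ± 1.46 to 574.7 ± 23.9 CPM (log2 fold change 4.60, adjusted p = 2.6e-17) and Mafk from 22.8 ± 1.39 to 430.8 ± 15.4 (4.24, adjusted p = 4.5e-17). The third, Mafg, named after its values were seen, was at 1.24 on the TMM scale and at 0.29 on library totals. Nfe2l2, which encodes NRF2, and Bach1 were also named after their values were seen. Nfe2l2 was at 1.19 on the TMM scale, 0.24 on library totals and -0.12 on TPM, and at -0.10 in Cu-Cys (adjusted p = 0.18). Bach1 was at 0.89 on the TMM scale and at -0.058 on library totals. Trp53, the p53 tumour suppressor, rose by 1.81. Keap1, the NRF2 adaptor for degradation, fell by 1.32, Myc by 1.09 and Srebf1 by 0.73. In Cu-Cys, 5 regulators were higher and none was lower, beside 22.6% and 22.4% of all genes (3 and 1 on library totals, beside 15.4% and 28.9%), with Maff at 0.57 and Mafk at 0.45, while Keap1 did not pass the test (0.14, adjusted p = 0.098, and -0.02 on TPM).

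**Figure D4:**
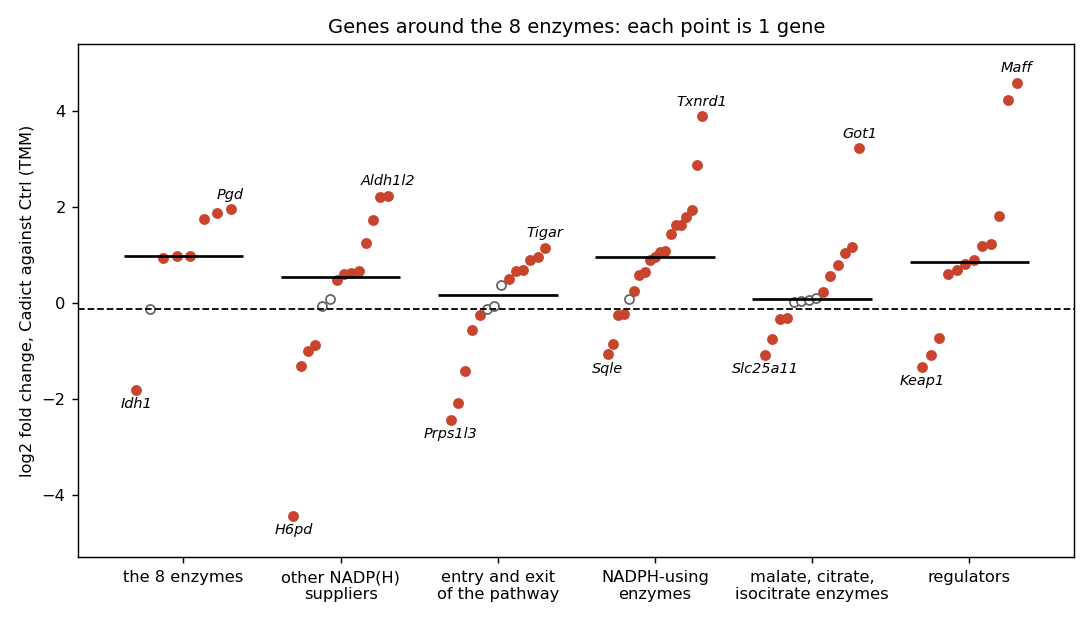
Points give the log2 fold change of single genes in Cadict against Ctrl on the TMM scale, red where the adjusted p was at most 0.05 and open where it was not, with a solid line at each list's median and a dashed line at the median of all genes. The 8 enzymes span from Idh1 at -1.82 to Pgd at 1.95, and H6pd and Maff lie farthest from 0.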

How the data were processed

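RNA of MC38 cells was sequenced in 9 libraries. The labels describe column extraction, oligo(dT) capture and DNA nanoball sequencing, whereas the study's methods name TRIzol and an Illumina instrument. The submitters' processing notes name HISAT2 2.1.0, Bowtie2 2.3.4.3, RSEM 1.3.1 and the builds GRCm39 and GRCh38.p13, without roles. The authors deposited expected counts, FPKM and TPM per gene and library. Their deposited normalised signal columns, expected counts divided by a size factor per library, were not used, nor were columns of their own comparisons. Columns abbreviated CC were read as Cu-Cys and CCGE as Cadict, from the components of the nanodrug, so that every Cadict value rests on this reading. All per-sample columns were mapped (0 left over).

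Expected counts were rounded and tested with edgeR 4.0.16 (quasi-likelihood test, TMM factors, filterByExpr) in 1 fit of the 3 groups, with Benjamini-Hochberg adjustment over all 11949 genes tested. The authors' deposited TPM served for levels between genes and for ratios, compared by exact two-sided permutation tests in R 4.3.3. The call rules were an adjusted p of at most 0.05, and a fold of at least 2 with an adjusted p of at most 0.001, the study's own. Fits were first checked on simulated data in which few genes changed, as often up as down. That check did not cover a shift in composition such as that of the Cadict libraries. The members, the gene lists and the tests were chosen with earlier results of these data known. Of the 9 members chosen by symbol, 8 are named, and 1 member and 2 list genes are not reported here. Counts over the members and lists leave these out. From each other list, up to 3 rises and 3 falls in Cadict against Ctrl are named, by size, among genes called, whose mean was 10 CPM or more and whose groups did not overlap. The 2 nearest genes of each member were taken by Euclidean distance. Alternatives were DESeq2 1.42.0 and its size factors, library totals, filters of at least 10 counts or none, limma 3.58.1 on log2 of the deposited TPM (pseudocount 1 or 0.1) and FPKM (pseudocount 1), a replicate block, only the groups compared, and each library left out. Promoter windows and transcripts were from RefSeq (GRCm38.p6) and GENCODE (GRCm38), another build than the notes name, and no position enters a measured value. Precision was limited by 3 libraries a group and 17905770 to 18293060 counts per library.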

Additional observations from a re-analysis of the deposited data

How the results depend on the processing

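Pgd, Taldo1, Me1 and Idh1 kept their direction and their call at an adjusted p of at most 0.05 in Cadict against Ctrl under all 19 alternatives, but the rises of Pgd, Taldo1 and Me1 were under 2-fold on library totals (0.998, 0.79 and 0.91 on the log2 scale), TPM (0.64, 0.42 and 0.54) and FPKM. Other results turned on the scaling of the Cadict libraries, and which scaling is right cannot be told from these files. On library totals the members higher at an adjusted p of at most 0.05 were 3 and the members lower 2 in Cadict against Ctrl, and 3 and 3 in Cadict against Cu-Cys, with 0 higher and 2 lower at 2-fold in each. The reversed log2 values were then -0.023 (Rpia) against Ctrl, -0.32 (Rpia) and -0.0047 (Tkt) against Cu-Cys, and -0.030 (Rpe) in Cu-Cys against Ctrl. FPKM gave the same counts except 1 lower at 2-fold against Cu-Cys, with -0.033 (Rpia), then -0.31 (Rpia) and -0.0079 (Tkt), and -0.035 (Rpe in Cu-Cys). On TPM with a pseudocount of 1, members higher and lower were 3 and 5 in Cadict against Ctrl, 1 and 5 in Cadict against Cu-Cys and 3 higher in Cu-Cys against Ctrl, with 0 higher and 2 lower at 2-fold in the Cadict comparisons, and a pseudocount of 0.1 gave these counts too. The reversed values at a pseudocount of 1 and of 0.1 were -0.34 and -0.34 (Pgls), -0.36 and -0.38 (Rpia) and -0.33 and -0.33 (Tkt) against Ctrl. Against Cu-Cys they were -0.17 and -0.17 (Pgls), -0.090 and -0.090 (Pgd), -0.57 and -0.60 (Rpia) and -0.28 and -0.28 (Tkt), and in Cu-Cys against Ctrl -0.11 and -0.11 (Rpe) and -0.050 and -0.051 (Tkt). DESeq2 size factors and the DESeq2 test each gave 6 members higher at 2-fold in Cadict against Ctrl and Pgls at 0.0077 and 0.0078 in Cu-Cys, and fitting only the groups compared gave 5 at 2-fold and 1 member (Idh1) lower in Cu-Cys. A filter of at least 10 counts, or no filter, made the members lower 2 in each Cadict comparison (Rpe joined Idh1), and no filter left 2 at 2-fold against Cu-Cys. Over all genes, calls at 2-fold in Cu-Cys against Ctrl were 196, and 119 with at least 10 counts, 117 on TPM (pseudocount 1) and 71 on FPKM. Leaving out 1 library at a time gave 1 to 2 members lower in each Cadict comparison and 3 to 5 higher at 2-fold in Cadict against Ctrl. In Cu-Cys against Ctrl it moved Pgls between -0.071 and 0.043 and Rpe between -0.031 and 0.10. The cause of these moves was not tested. Same-numbered libraries did not deviate together (correlations of -0.19 to 0.15 over 8551 genes), so these values gave no sign that the numbers pair them. Such correlations cannot show how the libraries were prepared. With the number as a replicate block, members lower in Cadict against Cu-Cys were 2, Rpe passing at -0.17 (adjusted p = 0.045), and no other member's call changed.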
